A study of Mus musculus with 9 samples.

Results

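Rora, Il23r, Il22, Il17f, Il17re and Il1r1 are 6 genes of the Th17 programme, that is, a lineage factor, cytokines and receptors of IL-17-producing helper T cells. They were taken by name from a table of 56860 genes, and all 6 names were found. Th17 cells arise when naive CD4+ T cells meet TGF-beta with IL-6, and the nuclear receptors of the ROR family then switch on the lineage genes. IL-23 and IL-1, made by myeloid cells, act on their receptors to sustain and drive the cells, which in turn secrete IL-17A, IL-17F and IL-22. IL-17 cytokines act through receptors on epithelial, stromal and myeloid cells, which respond with neutrophil chemoattractants and proteases, and the pathway is widely studied in inflamed joints.

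RNA-seq libraries were made from mouse spleen cells labelled CD4+ T cells, in 3 groups of 3 libraries. The groups were CIA mice that also received luteolin, a plant flavone, CIA mice without it, and control mice. The series title names RA and Th17 differentiation, so the comparisons ask what the disease group and the treatment did to these genes. Strain, age, genotype and the dose and time of luteolin are not given in the sources used here, nor is it stated whether a replicate is 1 animal or a pool, and p-values therefore cover only the spread among libraries, which may be technical.

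Libraries held between 31234177 and 41815573 counts. Levels are in CPM, the count scaled to library size with TMM factors, and means stand with their SD over 3 libraries. Each change is a fitted log2 fold change with its SE from the quasi-likelihood test of edgeR, called where the Benjamini-Hochberg adjusted p over all tested genes was under 0.05. The label was checked with defining genes. Cd4, the coreceptor of helper T cells, was at 104 ± 4.57 CPM in CIA with luteolin, 128 ± 39.6 in CIA and 2.92 ± 0.639 in control, so it was nearly absent from the libraries labelled control. The summed level of 13 T cell genes was 526.1 to 551.7 CPM in CIA with luteolin, 512.2 to 825.7 in CIA and 288.5 to 329.1 in control. For 10 neutrophil genes the sum was 5647 to 6100, 5632 to 9681 and 1795 to 2187 CPM in the same groups, for 8 B cell genes 423.7 to 523.1, 288.6 to 1576 and 2021 to 2085 CPM, and for 10 macrophage and monocyte genes 851.8 to 1125, 564.3 to 1013 and 491.9 to 551.7 CPM. Every difference from control below stands beside these differences in cell markers, whose part in it was not tested. In such bulk RNA, more cells of a type and more RNA per cell cannot be told apart.

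The promoters of Il23r and Il17f are shown because, of the 6 genes, these were the ones with a match to AGGTCA, the core motif that ROR factors bind, in the 250 bases before a RefSeq start. Both are RefSeq sequences of GRCm38.p6, whereas gene positions below are those of the count table, given as mm39. They run 5′ to 3′ on the strand of the gene and end at the base before the start, and capitals mark AGGTCA or its reverse complement TGACCT. The Il23r stretch is chr6:67491856-67492105 on the minus strand, and that of Il17f is chr1:20784271-20784494 on the minus strand, printed without the bases at its far end that lie in an annotated exon. All 250 bases before each start were searched for each of the 6 genes, whatever is printed.
Il23r: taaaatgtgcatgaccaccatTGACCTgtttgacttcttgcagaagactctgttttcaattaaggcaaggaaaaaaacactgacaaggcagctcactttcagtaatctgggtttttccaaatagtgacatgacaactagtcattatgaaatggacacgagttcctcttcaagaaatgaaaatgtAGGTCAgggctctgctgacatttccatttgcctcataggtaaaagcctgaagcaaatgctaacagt
Il17f: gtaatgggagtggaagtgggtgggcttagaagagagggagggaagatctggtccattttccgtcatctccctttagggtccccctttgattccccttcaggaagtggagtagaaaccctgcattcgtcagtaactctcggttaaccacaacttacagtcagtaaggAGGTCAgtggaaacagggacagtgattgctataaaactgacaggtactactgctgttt
In Il23r the matches lie 229 to 224 bases before the start on the opposite strand and 66 to 61 bases before it on the strand of the gene. In Il17f the match lies 58 to 53 bases before the start. Of 32851 mouse promoters searched over the same 250 bases, 14.0% hold AGGTCA on either strand. Neither the STAT motif TTCNNNGAA nor the AP-1 motif TGANTCA, held by 7.02% and 6.75% of promoters, was found in the 250 bases before any start of the 6 genes, which says only that these letters are not in those windows.

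In CIA against control, Rora, Il23r, Il1r1, Il22 and Il17re rose, and Il17f did not pass the test. Rora rose 5.51-fold, Il23r 4.81-fold, Il1r1 4.51-fold and Il22 10.3-fold. The T cell receptor chain gene Cd3e rose 2.86-fold and Cd4 43.6-fold, the latter more than any of the 6 genes. These 5 of 6 genes stand beside a background of 26.6% called higher among the 19348 genes kept by the filter on low counts (12.9% of all 39791 genes with a count, the fit that holds Il17f). Without overlap between the groups were 4 of 6 genes, Rora, Il23r, Il1r1 and Il22, where 29.7% of the filtered genes and 17.0% of all genes with a count were higher in this way. In CIA with luteolin against CIA, the cytokine genes Il22 and Il17f rose, 3.18-fold and 5.11-fold, and the factor and the receptors did not pass. Those 2 of 6 stand beside a background of 23.1% of the filtered genes called higher and 11.9% of all genes with a count, so the count is not read as particular to these genes. Without CIA replicate 3, 4 of 6 were called higher, Il22, Il17f, Il23r and Il1r1, beside 9653 of 19828 filtered genes called in either direction. Without luteolin replicate 1 or luteolin replicate 3 only Il22 was, that is 1 of 6. There, 7289 of 19891 and 7612 of 20034 filtered genes were called in either direction. Without CIA replicate 1, 3 of 6 were called, Il22 and Il17f higher and Rora lower, beside 9884 of 19981 filtered genes. With all libraries, Il22 and Il17f were higher without overlap, beside 28.0% of the filtered genes and 15.0% of all. All 6 rose in CIA with luteolin against control, where the background was 24.2% and, in the fit with Il17f, 12.3%. All 6 were also free of overlap, beside 32.3% of the filtered genes and 17.5% of all. The filter kept Il22 and Il17re only through the libraries of CIA with luteolin, where their mean levels were highest. Their calls beside shares of the filtered genes carry that limit. The 6 genes were chosen with earlier results of these data known. No count of them beside a background is therefore read as particular to them. Any 2 of the 3 comparisons share a group of libraries, so their values are given side by side without a test between them.

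**Figure D1:**
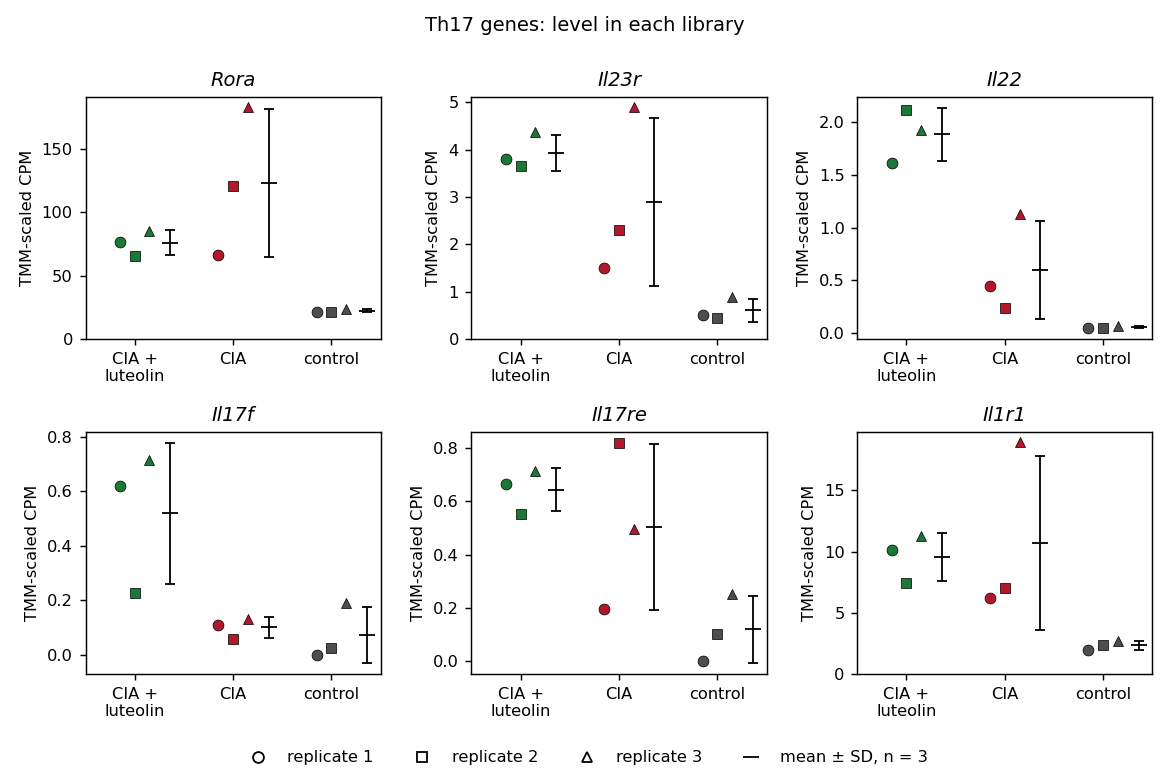
TMM-scaled CPM (linear axes) of the 6 genes in each library, with replicates as separate symbols and the mean ± SD of 3 libraries beside them. CIA replicate 3 is the highest library for Rora, Il23r and Il1r1, while for Il22 and Il17f every library of CIA with luteolin lies above every CIA and control library.

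Rora, which encodes the nuclear receptor ROR-alpha, a lineage factor that acts beside ROR-gamma-t in Th17 cells and is also used by other innate lymphoid and myeloid cells, lies on chromosome 9 (68561068 to 69295528, mm39, plus strand). It was the highest of the 6 per length in every group, at 5.80 ± 0.750 CPM per kb of exon in CIA with luteolin, 9.43 ± 4.48 in CIA and 1.71 ± 0.108 in control. Its levels were 76.8, 65.5 and 85.1 CPM in CIA with luteolin, 66.1, 120.5 and 183.1 CPM in CIA, and 21.7, 21.4 and 24.0 CPM in control. The CIA libraries spread 2.77-fold, and the luteolin libraries overlapped the lowest of them but were well above control. The change was 2.46 ± 0.29 in CIA against control (adjusted p = 0.000104, edgeR) and 1.76 ± 0.29 in CIA with luteolin against control (adjusted p = 0.000667, edgeR). Against CIA, CIA with luteolin was at -0.70 ± 0.28 and did not pass (adjusted p = 0.0576, edgeR). It was called lower by DESeq2 (-0.69, adjusted p = 0.0341) and without CIA replicate 1 (-0.99, adjusted p = 0.000364, edgeR). The edgeR fit of every gene with a count also called it lower (-0.67, adjusted p = 4.2e-08). Its SE there was 0.113 against 0.275 in the filtered fit, although the libraries overlapped. Without CIA replicate 3 the change in the filtered fit was -0.30 and did not pass (adjusted p = 0.197, edgeR). An antisense gene, Gm15511, covers 82 of its 13071 exonic bases and held 423 counts over all libraries against 23199 for Rora.

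Il23r encodes the subunit that gives the IL-23 receptor its specificity (chromosome 6, 67399916 to 67468839, minus strand). It had 160, 145 and 147 counts in CIA with luteolin, 54, 79 and 148 in CIA, and 20, 17 and 28 in control. This is 3.797, 3.649 and 4.365 CPM in CIA with luteolin, 1.501, 2.31 and 4.90 CPM in CIA, and 0.5002, 0.435 and 0.886 CPM in control. CIA replicate 3 lay above every treated library and the other CIA replicates below every one, and all 6 of these libraries were above control. Il23r rose by 2.27 ± 0.43 in CIA against control (adjusted p = 0.00162, edgeR; 1.68 without CIA replicate 3) and by 2.71 ± 0.43 in CIA with luteolin against control (adjusted p = 0.000559, edgeR). Between CIA with luteolin and CIA the change was 0.45 ± 0.37 and did not pass (adjusted p = 0.344, edgeR), but without CIA replicate 3 it was 1.04 and passed (adjusted p = 0.0059, edgeR).

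Il1r1 encodes the signalling receptor for IL-1 (chromosome 1, 40264240 to 40356417, plus strand), which promotes Th17 differentiation and is also carried by many non-T cells. Its levels were 10.1, 7.45 and 11.3 CPM in CIA with luteolin, 6.199, 7.05 and 18.9 CPM in CIA, and 2.00, 2.41 and 2.72 CPM in control. CIA replicate 3 was far above the other CIA libraries, and no library of either CIA group reached down to control. It rose by 2.17 ± 0.40 in CIA against control (adjusted p = 0.00123, edgeR; 1.49 without CIA replicate 3) and by 2.02 ± 0.39 in CIA with luteolin against control (adjusted p = 0.00201, edgeR). Against CIA, the value in CIA with luteolin was -0.15 ± 0.36 (adjusted p = 0.753, edgeR). The direction rested on CIA replicate 3, without which the change was 0.53 and passed (adjusted p = 0.029, edgeR), and without luteolin replicate 2 it was 0.05.

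Il17re encodes a receptor chain that pairs with IL-17RA to bind IL-17C and is best known from epithelial cells and Th17 cells (chromosome 6, 113435445 to 113447719, plus strand). It was the lowest of the 6 per length in CIA with luteolin, at 0.110 ± 0.0139 CPM per kb. Counts were 28, 22 and 24 in CIA with luteolin, 7, 28 and 15 in CIA, and 0, 4 and 8 in control. The highest control library, at 0.253 CPM, was above the lowest CIA library, at 0.195 CPM, while every treated library was above every control library. Il17re rose by 2.14 ± 0.78 in CIA against control (adjusted p = 0.0406, edgeR) and by 2.49 ± 0.76 in CIA with luteolin against control (adjusted p = 0.0206, edgeR), and did not pass in CIA with luteolin against CIA (0.36 ± 0.63, adjusted p = 0.669, edgeR). The call in CIA against control was lost without control replicate 1 (1.51), control replicate 2 (2.07), CIA replicate 2 (1.57) or any 1 of the luteolin libraries (2.13). That in CIA with luteolin against control was lost without control replicate 1 (1.87) or 2 (2.43) and without luteolin replicate 1 (2.47) or 3 (2.42). Leaving out control replicate 3, which held 8 of the 12 control counts, gave 3.22 in CIA against control and 3.58 in CIA with luteolin against control. A library with 0 counts is compatible with up to 3 expected counts, for counting error alone.

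Il22 encodes IL-22, a cytokine of Th17 cells and innate lymphoid cells that acts on epithelia and not on blood cells (chromosome 10, 118040847 to 118045952, plus strand). It had 68, 84 and 65 counts in CIA with luteolin, 16, 8 and 34 in CIA, and 2, 2 and 2 in control. In CPM this is 1.61, 2.11 and 1.93 in CIA with luteolin, 0.445, 0.234 and 1.12 in CIA, and 0.05002, 0.05123 and 0.0633 in control. No group overlapped another, so the order was CIA with luteolin, CIA, control. Il22 rose by 1.67 ± 0.44 in CIA with luteolin against CIA (adjusted p = 0.00943, edgeR), by 3.36 ± 0.67 in CIA against control (adjusted p = 0.00198, edgeR) and by 5.03 ± 0.60 in CIA with luteolin against control (adjusted p = 0.0001, edgeR). Leaving out CIA replicate 3 gave 2.45 in the first comparison and 2.58 in the second. The ratio of summed counts was 3.25 in CIA with luteolin over CIA, with an exact 95% interval of 2.42 to 4.42, or 2.13 to 5.06 if each fragment gave 2 counts. In CIA over control it was 10.7 (4.61 to 30.2, or 3.30 to 54.6 at 2 counts per fragment), from 58 counts against 6. These intervals cover counting error only.

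Il17f encodes IL-17F, a cytokine close to IL-17A that binds the same receptor pair (chromosome 1, 20847370 to 20860841, minus strand). The filter on low counts left it out, so it was tested in an edgeR fit of every gene with a count. It had 26, 9 and 24 counts in CIA with luteolin, 4, 2 and 4 in CIA, and 0, 1 and 6 in control. Every treated library was above every library of the other groups, while CIA and control overlapped. Il17f rose by 2.35 ± 0.71 in CIA with luteolin against CIA (adjusted p = 0.00537, edgeR) and by 2.92 ± 0.75 in CIA with luteolin against control (adjusted p = 0.00068, edgeR), and did not pass in CIA against control (0.57 ± 0.87, adjusted p = 0.697, edgeR). That fit gives smaller errors than the filtered one (0.113 against 0.275 for Rora in CIA with luteolin against CIA). With Il17f added to the filtered genes, an alternative chosen after seeing the data, the change over CIA was 2.33 ± 0.78 (adjusted p = 0.0309, edgeR). DESeq2 gave 2.39 and did not call it (adjusted p = 0.0534). In the fit of every gene with a count, the call over CIA was also lost without luteolin replicate 1 (2.21, adjusted p = 0.0559, edgeR) or 3 (2.06, adjusted p = 0.0737, edgeR) and held without any other library, and the call over control held without any of the 9. With Il17f among the filtered genes, the call over CIA was lost without CIA replicate 1 (2.41) or 2 (2.06) and without luteolin replicate 1 (2.17) or 3 (2.05), and the call over control without control replicate 2 (2.52) or luteolin replicate 3 (2.64). Control replicate 3 held 6 of the 7 control counts, and without it, in the fit of every gene with a count, the change in CIA with luteolin against control was 5.03 and that in CIA against control 2.67 (adjusted p = 0.12, edgeR). The ratio of summed counts was 5.13 in CIA with luteolin over CIA, with an exact 95% interval of 2.601 to 11.2, or 2.003 to 17.2 at 2 counts per fragment. Its neighbour Il17a, the main effector cytokine gene of Th17 cells, had 2, 2 and 0 counts in CIA with luteolin and none in the CIA or control libraries, so low levels of it were not detectable at this depth. Il17f, Il22, Il23r, Il17re and Il1r1 share no exonic base with another gene of the table.

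**Figure D2:**
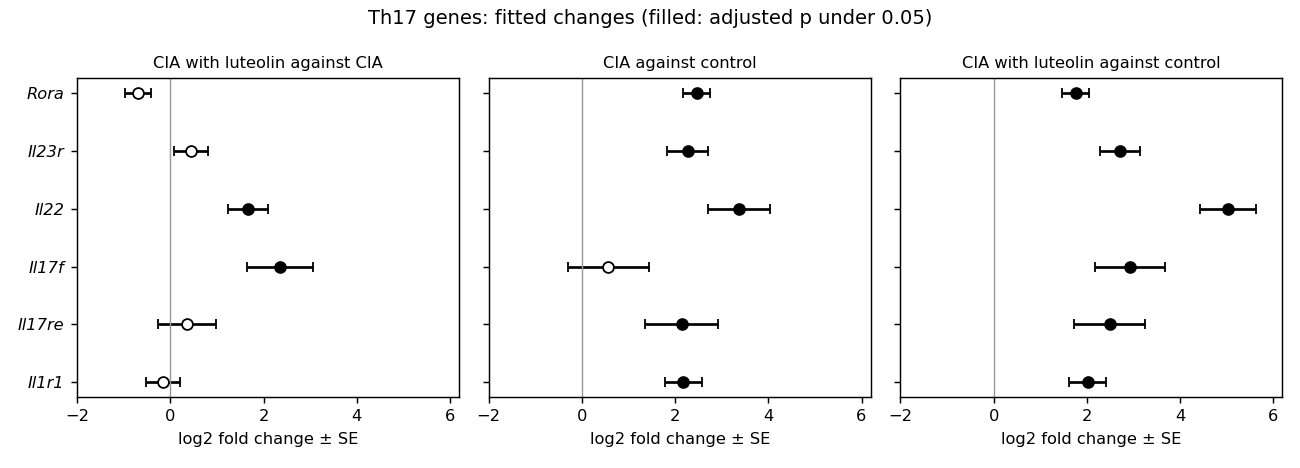
Fitted log2 fold changes ± SE of the 6 genes in the 3 comparisons, filled where the adjusted p was under 0.05, with Il17f from the fit of every gene with a count. Against CIA, Il22 and Il17f of CIA with luteolin lie to the right of 0 with filled symbols, and Rora is the furthest to the left at -0.70, with an open symbol.

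Per length, the order of the 6 genes differed between groups. In CIA with luteolin, Il22 (1.70 ± 0.228 CPM per kb), Il23r (1.58 ± 0.152) and Il1r1 (1.51 ± 0.307) followed Rora and did not differ from each other beyond their spread, and Il17f (0.257 ± 0.127) and Il17re followed at lower levels that overlapped. In CIA, Il1r1 (1.69 ± 1.12), Il23r (1.17 ± 0.713) and Il22 (0.542 ± 0.419) followed Rora with spreads that overlapped, before Il17re (0.0858 ± 0.0532) and Il17f (0.0498 ± 0.0188), which overlapped. Control had Il1r1 (0.374 ± 0.0568) and Il23r (0.244 ± 0.0979), which overlapped, before Il22 (0.0494 ± 0.00661), Il17f (0.0355 ± 0.0510) and Il17re (0.0202 ± 0.0217), and Il17f overlapped both Il22 and Il17re. Compared within single libraries, Il1r1 was above Il23r in every CIA and control library, and Il23r above Il22 in every CIA library. Likewise Il17f was above Il17re in every library of CIA with luteolin.

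Since the groups differed in T cell genes, counts were also taken per 1000 counts of Cd3d, Cd3e, Cd3g and Cd247, the chains of the CD3 complex of the T cell receptor. On this scale the median of all genes moved by 0.35 in CIA with luteolin against CIA and by -0.95 in CIA against control (log2). Cd4 was still at 575.5 ± 23.4 in CIA with luteolin, 518.4 ± 75.8 in CIA and 23.6 ± 4.54 in control, so the scale does not level it. Il23r was at 21.5, 19.4 and 24.7 in CIA with luteolin, 7.87, 8.57 and 18.4 in CIA, and 3.84, 3.35 and 7.96 in control. On this scale the treated libraries no longer overlapped those of CIA, and the change in CIA with luteolin against CIA was 0.91 and passed (adjusted p = 0.0363, edgeR). Il22 was at 9.13, 11.3 and 10.9 in CIA with luteolin, 2.33, 0.867 and 4.22 in CIA, and 0.384, 0.394 and 0.569 in control, with a change of 2.08 in CIA with luteolin against CIA (adjusted p = 0.000845, edgeR) and of 2.44 in CIA against control (adjusted p = 0.00297, edgeR). For Rora the means were 422 ± 67.6 in CIA with luteolin, 493 ± 175 in CIA and 182 ± 28.8 in control (SD, n = 3), and its change in CIA against control was 1.44 (adjusted p = 3.47e-05, edgeR). Rora of CIA with luteolin against CIA was at -0.23 (adjusted p = 0.442, edgeR). Il1r1 was 1.16 higher in CIA against control on this scale (adjusted p = 0.00384, edgeR). Il17re was at 1.12 and no longer called (adjusted p = 0.166, edgeR).

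**Figure D3:**
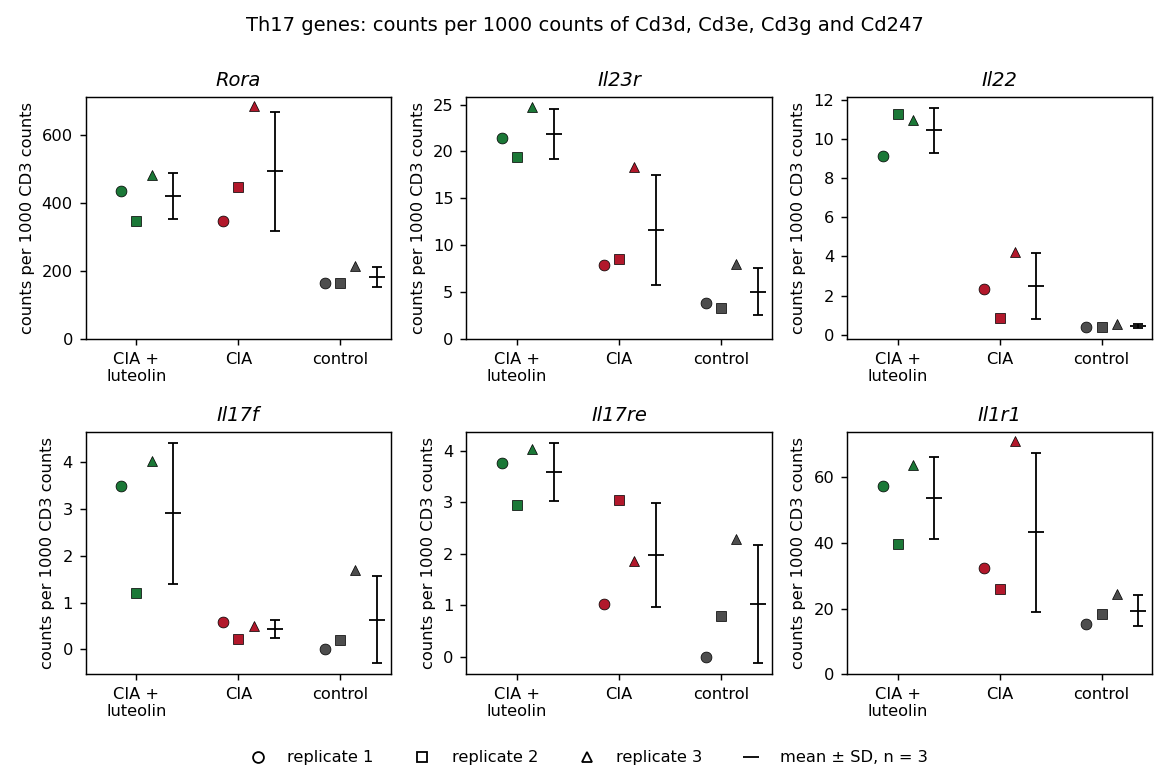
Counts of the 6 genes per 1000 summed counts of Cd3d, Cd3e, Cd3g and Cd247 in each library (linear axes), with the mean ± SD of 3 libraries. Il23r and Il22 of CIA with luteolin lie above every library of the other groups, Il17f above those of CIA but not above the highest control library, and Rora within the range of CIA.

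A ratio of 2 of the genes within a library does not depend on library scaling, and was taken relative to Il23r after seeing the data. Rora had 20.2, 18.0 and 19.5 counts per Il23r count in CIA with luteolin, 44.0, 52.2 and 37.4 in CIA, and 43.3, 49.2 and 27.1 in control. The treated libraries lay below all others, while CIA and control overlapped. Il22 had 0.425, 0.579 and 0.442 counts per Il23r count in CIA with luteolin, 0.296, 0.101 and 0.230 in CIA, and 0.10, 0.118 and 0.0714 in control. For Il1r1 the ratio was 2.67, 2.04 and 2.58 in CIA with luteolin, 4.13, 3.05 and 3.87 in CIA, and 4.0, 5.53 and 3.07 in control. The log2 ratio to Il23r differed in CIA with luteolin against CIA by -1.20 for Rora, 1.33 for Il22 and -0.60 for Il1r1, without overlap in any of the 3. Each had p = 0.1 in a 2-sided exact permutation test, the smallest that 3 against 3 libraries can give, and p = 0.167 after Benjamini-Hochberg adjustment over 10 ratio comparisons. In CIA against control the same ratios differed by 0.19, 1.01 and -0.16, and the groups overlapped in each.

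**Figure D4:**
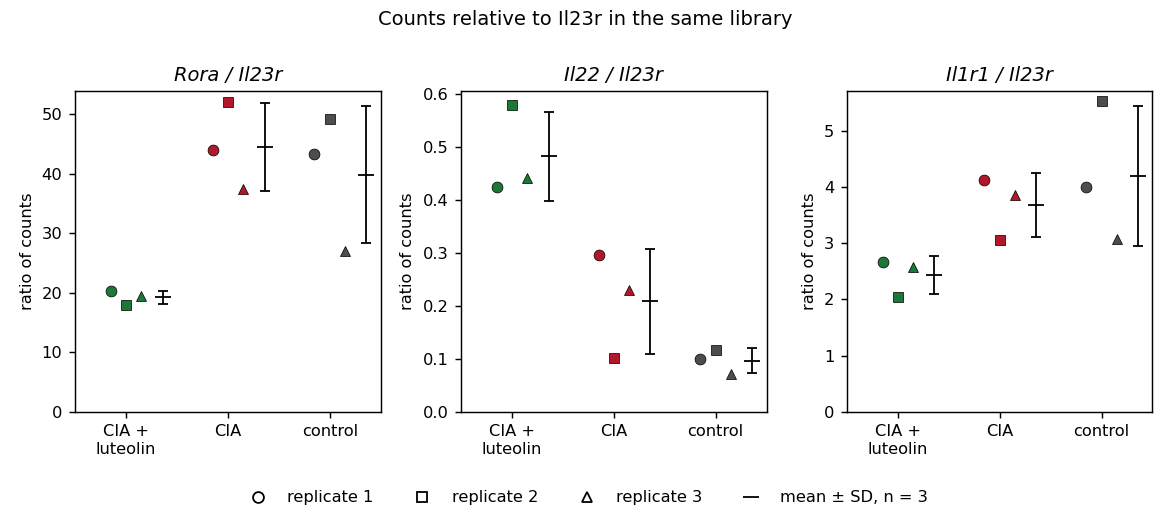
Counts of Rora, Il22 and Il1r1 divided by the counts of Il23r in the same library (linear axes from 0), with the mean ± SD of 3 libraries. The libraries of CIA with luteolin form the lowest group for Rora and Il1r1 and the highest for Il22.

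Among CIA libraries the 6 genes did not share 1 order. By CPM, replicate 3 was highest in Rora, Il23r, Il22, Il1r1 and Il17f and replicate 2 in Il17re. Replicate 1 was lowest in Rora, Il23r, Il1r1 and Il17re and replicate 2 in Il22 and Il17f. For Il17f this order rests on 4, 2 and 4 counts in CIA replicates 1, 2 and 3, so replicates 1 and 3 tied in counts. The T cell genes summed to 512.2, 770.9 and 825.7 CPM in CIA replicates 1, 2 and 3, the neutrophil genes to 5632, 8392 and 9681 and the B cell genes to 1576, 923.3 and 288.6. Cd4 was at 82.1, 151.3 and 150.3 CPM. The part of these differences in the spread of the 6 genes was not tested.

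Other cells can carry the same genes, so their markers were measured in the same libraries. Trdc, the constant chain of the gamma-delta T cell receptor, was at 1.04 ± 0.127 CPM in CIA with luteolin, 0.947 ± 0.377 in CIA and 0.680 ± 0.126 in control. Sox13, a factor of IL-17-producing gamma-delta T cells, was at 0.781 ± 0.147 CPM in CIA with luteolin, 0.721 ± 0.262 in CIA and 0.144 ± 0.0545 in control. The table held 3 of the 8 gamma-delta genes of the list, and their sum (30.5 to 35.5 CPM in CIA with luteolin, 17.8 to 68.3 in CIA, 122.9 to 128.1 in control) is mostly Blk, which B cells also express. For 8 genes of group 3 innate lymphoid cells, which make IL-22, the sum was 274.4 to 279.6 CPM in CIA with luteolin, 212.3 to 278.9 in CIA and 203.8 to 236.0 in control. Their receptor gene Ncr1, shared with NK cells, was at 1.35 ± 0.175 CPM in CIA with luteolin, 0.0829 ± 0.0827 in CIA and 0.269 ± 0.184 in control. Of the 8 group 3 genes, 2 were called higher and 2 lower in CIA with luteolin against CIA. Among all filtered genes, 23.1% were called higher and 24.2% lower in that comparison. Il1rl1, the IL-33 receptor of group 2 innate lymphoid cells and mast cells, was at 18.8 ± 1.84 CPM in CIA with luteolin, 8.69 ± 5.23 in CIA and 0.614 ± 0.196 in control. All 8 genes of group 2 cells together were at 26.9 to 30.9, 18.3 to 35.0 and 11.5 to 13.5 CPM, and those of basophils and mast cells at 220.6 to 243.2, 71.8 to 135.1 and 10.8 to 15.6. Of 5 tested group 2 genes, 1 was called higher and 1 lower in CIA with luteolin against CIA. The stromal and endothelial genes summed to 66.6 to 69.3, 81.3 to 90.3 and 90.5 to 93.0 CPM in those groups, and the fibroblast gene Pdgfra had 2, 12 and 9 counts over the 3 libraries of each. No gene of these lists that the table holds was at 0 in every library. The part of these cells in the levels of the 6 genes was not tested.

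The rest of the pathway is given by lists. Of 29 other Th17 genes, 27 were tested. Of these, 5 were called higher, 6 lower and 16 did not pass in CIA with luteolin against CIA, with a median log2 fold change of -0.20 against -0.04 for all tested genes. In CIA against control, 17 were called higher, 4 lower and 6 did not pass, with a median of 0.76 against -0.01. Beside the shares called higher given above, 24.2% of the filtered genes were called lower in CIA with luteolin against CIA, 24.5% in CIA against control and 20.8% in CIA with luteolin against control. Hif1a, the oxygen-regulated factor that favours glycolysis in Th17 cells, rose by 1.23 ± 0.12 in CIA against control (adjusted p = 3.60e-05, edgeR) and was 0.25 ± 0.12 in CIA with luteolin against CIA (adjusted p = 0.108, edgeR). Sgk1, the salt-sensing kinase that stabilises Il23r expression, was at 120.6 ± 14.2 CPM in CIA with luteolin, 21.7 ± 5.04 in CIA and 39.8 ± 5.02 in control. Its change was 2.47 ± 0.17 in CIA with luteolin against CIA (adjusted p = 1.44e-06, edgeR). Nfkbiz, a nuclear IkB protein that works with ROR factors and also responds to IL-17, was at 47.1 ± 1.58 CPM in CIA with luteolin, 233 ± 113 in CIA and 54.3 ± 3.36 in control, and fell by 2.31 on the log2 scale in CIA with luteolin against CIA (SE 0.27, adjusted p = 7.30e-05, edgeR).

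Among 7 partners of IL-23 signalling, 4 were called higher and 1 lower in CIA with luteolin against CIA, and 3 higher and 1 lower in CIA against control. The subunits of the cytokine moved in opposite directions. Il23a, the p19 subunit, was at 2.00 ± 0.340 CPM in CIA with luteolin, 22.7 ± 11.3 in CIA and 4.94 ± 0.903 in control, and Il12b, the p40 subunit, was at 11.1 ± 1.41, 0.818 ± 0.3597 and 4.04 ± 0.253 CPM in those groups. Il23a changed by -3.50 ± 0.38 and Il12b by 3.76 ± 0.26 in CIA with luteolin against CIA (adjusted p = 4.39e-05 and 1.87e-06, edgeR). Il12rb1, which pairs with the Il23r product, rose by 0.70 ± 0.21 in CIA with luteolin against CIA (adjusted p = 0.0182, edgeR) and by 1.43 ± 0.23 in CIA against control (adjusted p = 0.000562, edgeR). Of 5 tested partners of IL-22, 1 was called higher and 1 lower in CIA with luteolin against CIA, and 3 higher and 1 lower in CIA against control. Il10rb, the shared chain of the IL-22 receptor, was at 53.1 ± 1.48 CPM in CIA with luteolin, 42.1 ± 2.53 in CIA and 61.3 ± 4.08 in control.

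Of 10 IL-1 partners, 3 were called higher and 4 lower in CIA with luteolin against CIA, and 7 higher and 1 lower in CIA against control. Il1b, the myeloid ligand of the Il1r1 product, was at 221 ± 46.5 CPM in CIA with luteolin, 358 ± 118 in CIA and 80.5 ± 8.12 in control. Il1r2, the decoy receptor that competes with it, was at 35.8 ± 0.778 CPM in CIA with luteolin, 12.1 ± 1.505 in CIA and 7.23 ± 1.30 in control, and rose by 1.57 ± 0.14 in CIA with luteolin against CIA (adjusted p = 9.00e-06, edgeR). Of 8 tested ROR partners, 5 were called lower and 3 did not pass in CIA with luteolin against CIA, while 5 were called higher and 1 lower in CIA against control. Ncor1, a corepressor of nuclear receptors, changed by -0.71 ± 0.10 in CIA with luteolin against CIA (adjusted p = 0.000304, edgeR), and Arntl, a clock gene under ROR control, by -0.67 ± 0.12 (adjusted p = 0.00105, edgeR).

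In the IL-17 family, 6 of 11 other ligands, receptors and adaptors were tested. Of these 1 was called higher and 2 lower in CIA with luteolin against CIA, and 1 higher and 1 lower in CIA against control. Il17ra, the chain that pairs with the Il17re product and with other receptors of the family, was at 173 ± 4.13 CPM in CIA with luteolin, 213 ± 7.68 in CIA and 151 ± 2.59 in control. Traf3ip2, the adaptor Act1, fell in CIA against control by 0.82 on the log2 scale (SE 0.14, adjusted p = 0.000859, edgeR). Of 13 tested genes that respond to IL-17, 3 were called higher and 6 lower in CIA with luteolin against CIA, with a median of -0.66, and 9 higher and 1 lower in CIA against control, with a median of 1.72. Mmp13, a collagenase, was at 3.22 ± 1.17 CPM in CIA with luteolin, 15.7 ± 11.3 in CIA and 0.352 ± 0.172 in control. Lcn2, an iron-binding protein abundant in neutrophils, was at 298 ± 18.7 CPM in CIA with luteolin, 506 ± 125 in CIA and 154 ± 11.8 in control, beside the neutrophil sums given above. Ccl2, a monocyte chemoattractant, went the other way, at 15.6 ± 0.784 CPM in CIA with luteolin, 2.18 ± 1.45 in CIA and 1.91 ± 0.164 in control.

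**Figure D5:**
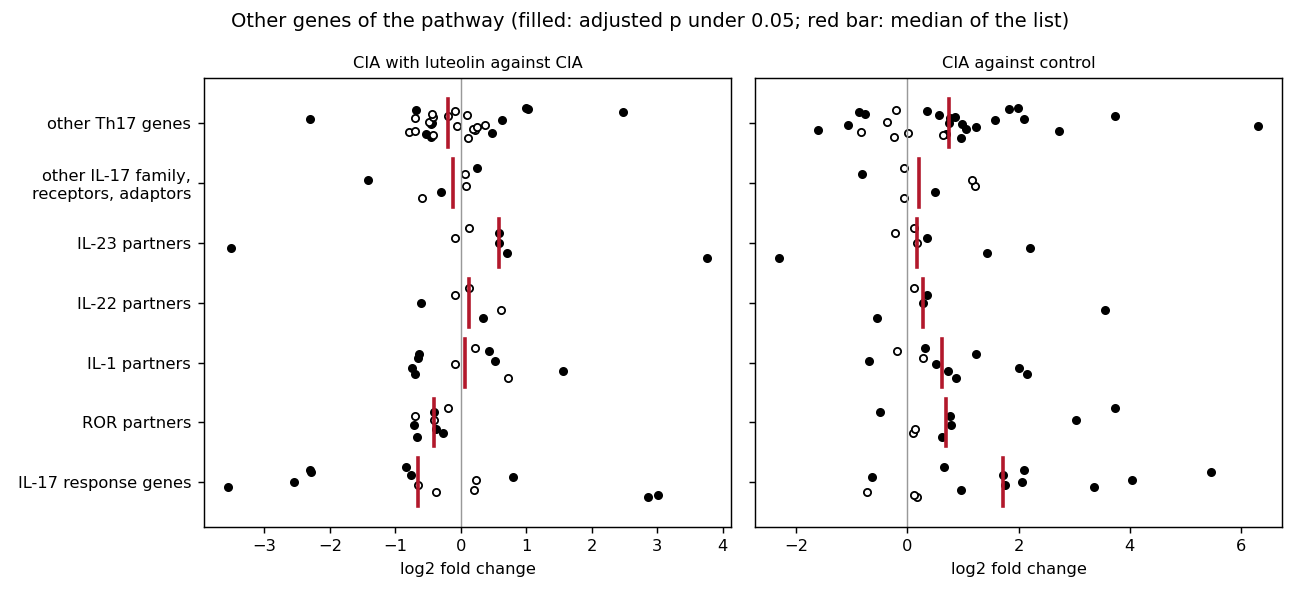
Log2 fold changes of the tested genes of 7 pathway lists in CIA with luteolin against CIA and in CIA against control, with 1 point per gene, filled where the adjusted p was under 0.05, and the median of each list as a red bar. The IL-17 response genes have a median of -0.66 in the first comparison and 1.72 in the second, and the partners of ROR factors a median of -0.41 and 0.69.

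The genes whose pattern over the 9 libraries was most like that of each member were found among 10886 named genes with a mean of at least 2 CPM, by Pearson correlation of log2 CPM. These values are descriptions, since libraries of a group share their condition. Rora was closest to Pgam1, a glycolytic enzyme gene (r = 0.998), Gsr, glutathione reductase (0.997), and Tex15 (0.997). Il23r was closest to Pcdhgc3 (0.990), Lama5, a laminin chain gene (0.988), and Arf1 (0.988). Il22 was closest to Mmp12, the macrophage elastase gene (0.986), Il2ra, the gene of the IL-2 receptor alpha chain (0.986), and Rab5c (0.984). Il1r1 was closest to Olr1, an oxidised LDL receptor gene (0.995), Ncoa4 (0.994) and H2az1 (0.992), and Il17re, at low counts, to Rbm7 (0.967), Ackr4 (0.960) and Mtf1 (0.956).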

How the data were processed

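The authors deposited raw counts per gene from featureCounts (Subread 1.5.1), obtained after mapping with a program written as STRA 2.5.3a, per the labels' protocols, and trimming with Trimmomatic 0.36, per the submitters' processing notes. Those notes name mm39, whereas the protocol names CHOK1GS. The strand setting and annotation release are not given in the sources used here. Gene lengths are the exonic bases of the deposited table. Even numbers made up 73.4% of values between 1 and 10 but 52.8% of values between 201 and 1000, the pattern of reads counted mate by mate, so counting intervals are also given at 2 counts per fragment.

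Each library was matched to its group by its label. No 2 libraries of a group were duplicates (chi-square per degree of freedom of at least 5.51). Counts were tested with edgeR 4.0.16 in R 4.3.3, with filterByExpr (19348 genes), TMM (factors 0.95 to 1.018), 1 term per group over all 9 libraries and glmQLFTest, 2-sided, with Benjamini-Hochberg adjustment and a threshold of 0.05. Il17f, below the filter, was tested among all 39791 genes with a count, also under the alternatives. SE is the log2 fold change over the square root of F. Only the edgeR fit of the filtered genes was run on simulated data, and the outcome is not given here. The fit that holds Il17f and the DESeq2 test were not run on simulated data. Alternatives were DESeq2 1.42.0 size factors and its test, scaling by CD3 counts, other filters, only the libraries compared, the replicate block and leaving out each library. The members, lists and tests were chosen with earlier results of these data known. From each list up to 4 genes with the smallest p could be named. A few other genes are not reported here.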

Additional observations from a re-analysis of the deposited data

How the results depend on the processing

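Of 309 recomputed fold changes of the 6 genes, 277 kept their direction and their side of the threshold. In CIA with luteolin against CIA, 2 were called, Il22 from the filtered fit and Il17f from the fit of every gene with a count. The filter of at least 1 CPM in 3 libraries, which removes Il17f and Il17re, left 1 called, beside 8347 of 15692 genes called in either direction. Leaving out a library gave 1 to 4. With no filter 3 were called, Il22 and Il17f higher and Rora lower, beside 9443 of 39791 genes. Scaled by CD3 counts, 3 were called higher, Il22, Il17f and Il23r, beside 7862 of 19348 genes called in either direction. In CIA against control 4 to 5, and in CIA with luteolin against control 5 to 6, were called without a library. Directions that turned were all of values that had not passed in the main fit. In CIA against control Il17f was -0.36 when scaled by CD3 counts and -0.04 to 2.67 without a library (-0.02 to 2.69 among the filtered genes). In CIA with luteolin against CIA, Il1r1 was 0.31 when scaled by CD3 counts and -0.42 to 0.53 without a library, and Il17re was -0.03 to 0.92. Among the turned values, that of Il1r1 without CIA replicate 3, 0.53, passed (adjusted p = 0.029, edgeR). Of the other Th17 genes, 19 were called in CIA with luteolin against CIA with no filter, against 11. In that comparison the fit with no filter gave smaller errors, 0.113 against 0.275 for Rora and 0.173 against 0.361 for Il1r1. The part of this in the count was not tested. Over all genes 9886, 9148 and 8708 were called in CIA against control, CIA with luteolin against CIA and CIA with luteolin against control. Without a library these counts were 8073 to 11065, 7289 to 9884 and 6835 to 10306.

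The main test did not pair libraries by replicate number. Deviations of same-numbered libraries correlated at 0.00654 to 0.143, and 2 of 9 pairs were over 0.1. Of 18 comparisons, 16 were highest at the own number, so some structure shared by number may be present. With the replicate block 9794, 9148 and 8764 genes and 5, 2 and 6 of the 6 genes were called. Il17f, Il17re and Il22 rest on at most 84 counts in any library, so depth limits them most.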
